A study of Homo sapiens with 4 samples.

Results

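The mean of 2 arrays of T84 cells given microRNAs (miRNAs) and collected on day 5 was compared with 1 array of control cells collected on day 7, to ask which maturation genes of an older control layer the miRNA cultures lacked or exceeded. The comparison used 3 of the 4 arrays of the study, chosen by treatment and day alone, and the remaining array, a day 5 control, is given beside it for reference. T84, a line from a human colorectal carcinoma, grows into a polarised layer, and in every group it was seeded at 500000 cells per well on polycarbonate filters of 24 mm diameter with 0.4 µm pores and transfected with 15 pmol of oligonucleotides. Whether that was the amount of a whole mix or of each miRNA is not stated, so the dose of each miRNA may differ between the mixes. One mix was of miR-338-3p with miR-451 and is called the 2-miRNA mix. The 4-miRNA mix added miR-210 and miR-33a, and both mixes were left for 5 days. The controls had received a negative-control oligonucleotide, for 5 or for 7 days. Each group was 1 array, and the miRNA arrays carried different mixes, so there was no replicate, no test across samples was possible, and differences between cultures of one kind were not measured.

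Cells of the colonic epithelium are born in crypts from dividing stem cells and mature as they move to the surface. Absorptive cells then gain transporters of salt, water and bicarbonate and a brush border of microvilli, and goblet cells gain mucus proteins, while genes of the crypt and of division decline. Intestinal cell lines held as a closed layer on a filter follow a part of this course with time. A miRNA pairs mainly through its seed with sites in messenger RNAs and lowers their level or their translation.

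The miRNAs differed in sequence, and the mature forms found in RefSeq (GRCh38.p14) are shown because the mixes are defined by them. Capitals mark the seed, bases 2 to 8. Each of the 3 seeds was unlike the others. The labels name no arm for miR-33a and miR-210, and the 5p and the 3p arm are shown. miR-451 is the remaining miRNA of both mixes.
miR-338-3p (chr17:81125887-81125908, minus strand): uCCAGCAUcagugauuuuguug
miR-33a-5p (chr22:41900949-41900969, plus strand): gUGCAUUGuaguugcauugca
miR-210-3p (chr11:568112-568133, minus strand): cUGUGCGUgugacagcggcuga

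Signals were scaled so that the trimmed mean of every array was 500, and a difference is in log2 of the scaled signal plus 32, so that folds of dim genes are understated. As deposited, the trimmed mean signal was 147 and 150 on the 2-miRNA and 4-miRNA arrays against 74.3 on the day 7 control, while the brightest probe sets of all 4 arrays ended at a similar signal. Brightness and miRNA treatment cannot be told apart. Of 12264 expressed genes, 698 were at least 2-fold higher in the miRNA mean than on day 7, which is 5.69%, and 397 were at least 2-fold lower, which is 3.24%. On both miRNA arrays separately, 567 genes (4.62%) were past 2-fold higher and 163 (1.33%) past 2-fold lower, and no gene was past 2-fold in opposite directions with the 2 mixes. The median of all genes was −0.17, so a list median is read against that value; it was −0.13 with quantile normalization and −0.04 when a running median over signal was subtracted. Higher genes made up 63.7% of those past 2-fold, and 80.1% (870 higher and 216 lower) after the running median was subtracted. Without the filter on signal they were the minority, at 44.1% (1128 higher and 1432 lower). The 78 genes with a deposited signal of at least 10000 on any array had a median of −0.76, against −0.16 for the other 12186, and −0.01 with quantile normalization. For genes with 2 well-measured probe sets, the SD between the probe sets' differences was 0.51, against 0.27 between the control arrays.

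**Figure D1:**
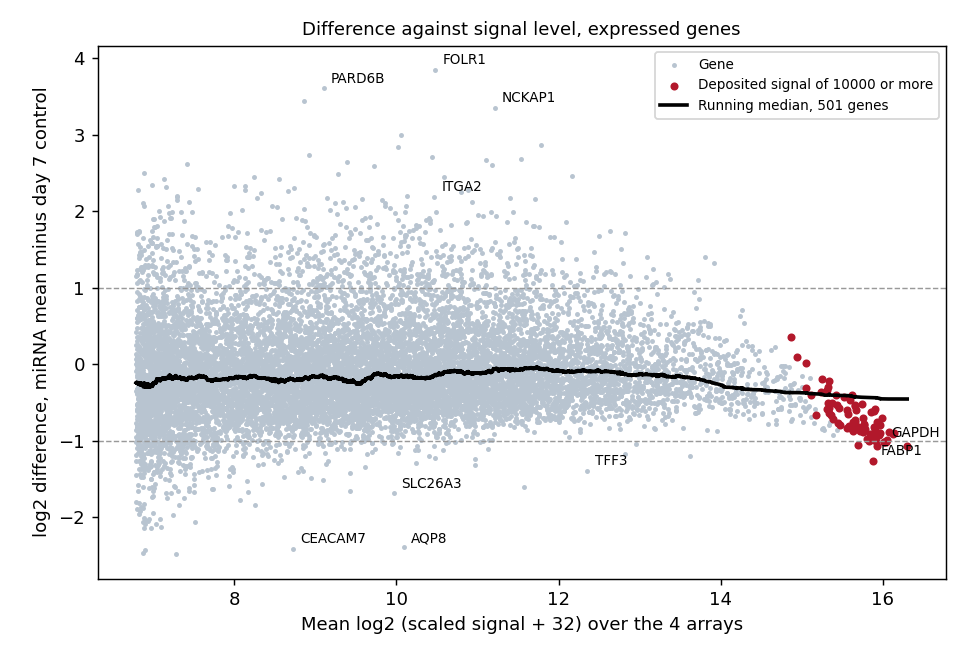
The log2 difference of the miRNA mean from the day 7 control (vertical axis) is plotted against the mean log2 signal over the 4 arrays (horizontal axis) for 12264 genes, with the running median over 501 genes as a line and the 2-fold limits dashed. Genes with a deposited signal of at least 10000 (red) lie mostly below 0, AQP8, SLC26A3 and CEACAM7 lie apart from genes of like signal, and FOLR1, PARD6B and NCKAP1 are the furthest above of the genes marked by name.

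Surface genes of absorptive colonocytes led the genes below day 7, and CEACAM7 and AQP8 were the lowest of those at or above the array median on all 3 arrays. AQP8, the water channel of the colonic surface, had a scaled signal of 4950 on the day 7 control, 709 with the 2-miRNA mix and 1183 with the 4-miRNA mix, a log2 difference of −2.39, or 5.25-fold lower. Its signal on the day 5 control was 286, so both miRNA cultures stood between the controls. SLC26A3, the apical exchanger of chloride for bicarbonate, gave 3417 on day 7 against 794 and 1365 with the 2-miRNA and 4-miRNA mixes and 223 on the day 5 control, a difference of −1.68 from day 7. It took the same intermediate place. CEACAM7, an adhesion molecule of the mature colonic surface, had 1468 on day 7, 201 and 311 with the mixes and 232 on day 5, a difference of −2.41. Unlike AQP8 and SLC26A3 it stayed near its day 5 level, and all 3 of its probe sets were low, with differences between −2.57 and −1.59. Each of these differences kept its size with quantile normalization (−2.41, −1.71 and −2.42 for AQP8, SLC26A3 and CEACAM7).

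The promoters of the same 3 genes, from 250 bases before to 50 after the start, are shown because these genes were low together (RefSeq, GRCh38.p14, 5′ to 3′ on the gene's strand). Capitals mark TTTAT, the core of sites bound by the intestinal factor CDX2, and CAAAG, a half-site of the HNF4 receptors, on either strand. AQP8 (gene 343) held 1 TTTAT, SLC26A3 (gene 1811) 2 CAAAG, and CEACAM7 (gene 1087) 1 CAAAG on each strand, side by side. Of 35116 promoters of the same length, 34.9% held TTTAT and 47.5% held CAAAG on either strand, so such matches are common, and a match is a description of the letters alone. CDX2 itself had 1296 and 1291 on the miRNA arrays and 1309 on day 7 (difference −0.02), though its other probe set was at −0.72.
AQP8 promoter (chr16:25216697-25216996, plus strand): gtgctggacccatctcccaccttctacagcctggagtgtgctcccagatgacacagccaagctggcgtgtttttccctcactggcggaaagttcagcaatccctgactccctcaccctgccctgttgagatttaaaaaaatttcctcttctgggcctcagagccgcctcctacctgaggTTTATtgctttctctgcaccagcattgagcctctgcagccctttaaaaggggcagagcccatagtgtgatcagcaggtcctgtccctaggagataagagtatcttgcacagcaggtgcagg
SLC26A3 promoter (chr7:107803174-107803473, minus strand): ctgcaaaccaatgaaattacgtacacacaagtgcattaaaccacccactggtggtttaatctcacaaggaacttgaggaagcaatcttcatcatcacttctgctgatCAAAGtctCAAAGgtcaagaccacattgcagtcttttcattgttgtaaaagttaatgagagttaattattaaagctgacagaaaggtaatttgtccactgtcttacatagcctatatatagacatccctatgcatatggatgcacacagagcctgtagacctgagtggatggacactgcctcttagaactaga
CEACAM7 promoter (chr19:41688221-41688520, minus strand): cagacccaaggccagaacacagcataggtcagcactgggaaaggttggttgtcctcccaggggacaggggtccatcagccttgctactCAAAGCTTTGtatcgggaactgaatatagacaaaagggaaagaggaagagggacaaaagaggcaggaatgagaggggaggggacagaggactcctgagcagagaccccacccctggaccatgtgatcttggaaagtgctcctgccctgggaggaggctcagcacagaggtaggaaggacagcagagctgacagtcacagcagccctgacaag

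Over the whole absorptive list, 41 of 62 genes were expressed, 18 were under the signal filter and 3 had no probe set of their own. Of the 41, 6 were at least 2-fold lower in the miRNA mean and 1 higher, against 3.24% and 5.69% of all genes, and the list median was −0.45 against −0.17 for all genes. The median was −0.32 with quantile normalization and −0.23 after the running median was subtracted, below the all-gene median each time, and 35 of the 41 lay below 0, where 62.2% of all genes lay. Of the 42 lists, 24 had a median below that of all genes, so that place alone does not set the absorptive list apart. Medians of similar size are given below for the respiratory chain, glycolysis and antigen presentation. The other low members were FABP1, the fatty acid binding protein of enterocytes (−1.26), APOB, the protein of chylomicrons (−1.17), and CA1, a carbonic anhydrase (−1.09). FABP1 is near the top of the arrays' range, was at −0.34 with quantile normalization and had a second probe set at 0.93. APOB and CA1 were under the array median on 1 of the miRNA arrays. ABCG2, an efflux pump, was above day 7, but it was under the median of both controls and the bound is 1.15-fold.

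Several surface genes named here after their values were seen were near day 7. SLC26A2, the sulfate transporter of the colonic surface, had 14111 and 13006 with the mixes, 17612 on day 7 and 5698 on day 5, a difference from day 7 of −0.38. SLC51B, the β subunit of the basolateral bile acid exporter, had 314 and 352 against 393 on day 7 and 111 on day 5 (−0.22). KRT20, the keratin of mature colonocytes, had 18784 and 20807 against 27245 and 14215 (−0.46, or −0.16 after the running median was subtracted). The levels of these genes lay closer to day 7 than to day 5, except that of KRT20, which lay between. TSPAN1, a tetraspanin, was nearer to day 5, with 4069 and 5035 against 8395 on day 7 and 3348 on day 5 (−0.89). On day 7, 7 of the 41 were at least 2-fold above day 5, against 3.35% of all genes, and none was 2-fold below, against 2.41%. Those values and the ones above share the day 7 array, so they are not independent.

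Structural genes of the brush border had a median of −0.22 (−0.25 with quantile normalization), near that of all genes. Of 31 expressed genes of 34, none was 2-fold lower and 1 was higher, where 3.24% and 5.69% of all genes were, so these counts do not set the list apart. VIL1, the actin bundler of microvilli, had 9198 and 10484 against 10600 on day 7, a difference of −0.11. MYO1A, the myosin that ties the actin core to the membrane, had 1284 and 1690 against 2317 (−0.64), and USH1C, the scaffold of the links between microvilli, had 2413 and 2701 against 4038 (−0.66). These genes were modestly lower. MYO1D, a related myosin of the enterocyte, was above both controls, with 996 and 1468 against 479 on day 7 and 290 on day 5, a difference of 1.28. Ezrin, EZR, which anchors actin to the apical membrane, was at 0.89, but its probe sets ranged from −0.67 to 0.89, so no direction is given.

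Some brush border enzymes differed between the mixes, each of which was 1 array. Of 27 listed genes 12 were expressed, with a median of −0.28, which was −0.58 with the 2-miRNA mix and −0.13 with the 4-miRNA mix. MEP1A, the α subunit of the protease meprin, had 1113 with the 2-miRNA mix, 3556 with the 4-miRNA mix, 3295 on day 7 and 1467 on day 5. It was thus at its day 5 level with one mix and at its day 7 level with the other. ANPEP, the aminopeptidase of the brush border, had 145, 323, 252 and 55 on the same arrays, so it was below day 7 with the 2-miRNA mix and above it with the 4-miRNA mix. ENPP3, an ectonucleotidase, was the single member past 2-fold (−1.02), with 228 and 137 against 393 on day 7, and its difference was −0.95 after the running median was subtracted. The genes of sucrase-isomaltase and intestinal alkaline phosphatase, SI and ALPI, were under the signal filter.

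A list of goblet and Paneth cell products, with the factors and Golgi enzymes of these secretory cells, had 28 expressed genes of 40, of which 22 lay below day 7, where 62.2% of all genes did. In the miRNA mean 7 were at least 2-fold lower and 1 higher, against 3.24% and 5.69% of all genes, and 6 were lower on both arrays separately, where 1.33% of all genes were. The list median was −0.62 (−0.64 with quantile normalization and −0.50 after the running median was subtracted), and it was −0.85 with the 2-miRNA mix and −0.52 with the 4-miRNA mix. TFF3, the trefoil peptide of intestinal mucus, had 3663 and 6021 with the mixes, 12339 on day 7 and 2696 on day 5, a difference of −1.39. ZG16, a lectin of the mucus layer, had 8575 and 13859 against 25146 and 8380 (−1.20). Both lay between the controls with either mix, and nearer to day 5 with the 2-miRNA mix. WFDC2, a protease inhibitor of secretions, had 483 and 791 against 1615 on day 7 and 507 on day 5 (−1.34), and its second probe set was at −0.87.

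Other goblet genes lay below both controls. FCGBP, which binds the Fc part of IgG and is built into mucus, had 1657 and 2337 against 6057 on day 7 and 3556 on day 5, a difference of −1.61. MUC2, the gel-forming mucin of the colon, had 497 and 595 against 1264 and 907 (−1.17). CLCA1, a secreted protease of mucus, had 1176 and 1189 against 2998 and 3580 (−1.32). The 3 genes each had 1 probe set. ATOH1, the factor that commits cells to the secretory lineage, was lower by less than 2-fold, with 222 and 316 against 504 on day 7 and 505 on day 5. In all, 12 of the 28 were below both controls on both miRNA arrays, close to the 41% of all genes that were, so the count itself does not set them apart. NXPE1 was at −1.06 on its brighter probe set and 0.29 on the other. LYZ, lysozyme, a product of Paneth cells, was higher, with 490 and 462 against 144 and 111 (1.53). The Paneth defensins were not: DEFA5 had 1018 and 920 against 1833 on day 7 and 3224 on day 5 (−0.90), and DEFA6 1275 and 1549 against 1854 and 2687 (−0.39). TFF1, a further trefoil peptide, had 995 with the 2-miRNA mix, 2240 with the 4-miRNA mix and 2002 on day 7, again at the day 7 level with the larger mix alone.

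**Figure D2:**
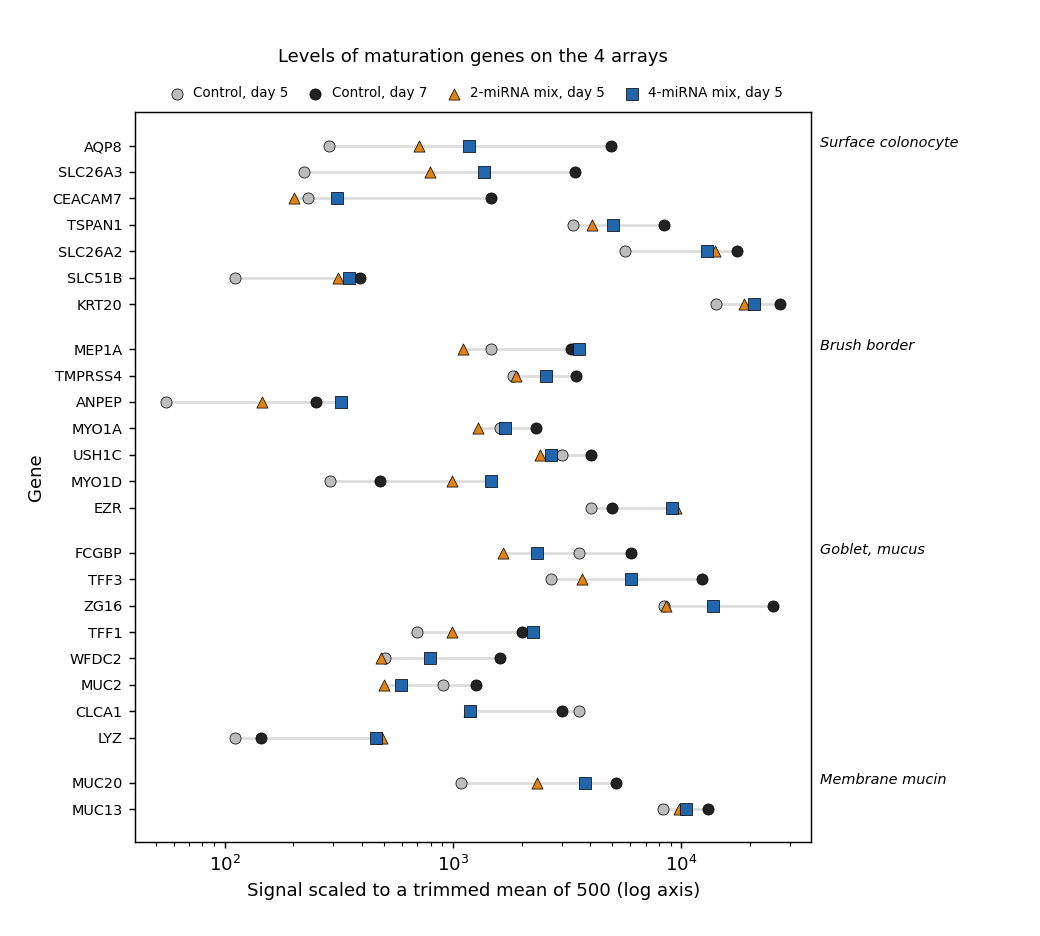
The scaled signal of 24 maturation genes (log axis) is plotted for each of the 4 arrays, grouped by role. AQP8, SLC26A3, CEACAM7, TFF3 and ZG16 lie below the day 7 control (black) with both mixes. SLC26A2 and SLC51B lie nearer to the day 7 than to the day 5 control, and KRT20 lies between the controls. MEP1A, ANPEP and TFF1 separate the 4-miRNA mix (squares) from the 2-miRNA mix (triangles).

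Cell-surface mucins had 5 expressed members of 11 and a median of −0.37, with none past 2-fold. MUC20 stood between the controls, at 2338 and 3795 against 5201 on day 7 and 1089 on day 5. Genes of chloride and fluid secretion, the crypt-type transport for which T84 is used, had a median of −0.14 over 24 of 28 genes, and −0.01 after the running median was subtracted. CFTR, the apical chloride channel, had 6226 and 5049 against 7002 on day 7 (−0.32, with other probe sets up to 0.18). ANO1, the calcium-activated chloride channel, was the exception with both of its probe sets higher, at 1.01 and 1.77, and signals of 591 and 821 against 331. SLC4A7, a bicarbonate cotransporter, was at 1.02 on one probe set and −1.22 on another.

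Junction genes differed by member. The tight junction list had a median of −0.31 over 23 of 36 genes, which was −0.14 when the median over probe sets stood for a gene. OCLN, the membrane protein occludin, had 3502 and 3781 against 3393 on day 7 (0.10), and TJP1, the scaffold ZO-1, 4330 and 4413 against 3342 (0.38, with its second probe set at −0.20). CLDN2, the claudin of leaky, crypt-type junctions, was below both controls, with 745 and 574 against 1239 on day 7 and 3179 on day 5 (−0.89). CDH1, E-cadherin, had 20366 and 22035 against 22640 (−0.10), and none of 20 genes of adherens junctions and desmosomes was past 2-fold. Their median of −0.09 became 0.13 after the running median was subtracted, so no direction is given for that list. PATJ, a scaffold of the apical Crumbs complex, was at 1.25, with probe sets between −0.26 and 1.91.

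Among the genes of apical polarity, PARD6B exceeded day 7 the most. PARD6B, the subunit of the Par complex that binds CDC42 and atypical protein kinase C, had 1573 and 1762 with the mixes against 107 on day 7 and 196 on day 5, a difference of 3.61. It was measured by 1 of its 3 probe sets, and its day 7 signal was close to the array median of 99. Its list of 21 genes had a median of −0.12 (0.02 after the running median was subtracted), with 3 genes past 2-fold higher, PARD6B and PATJ among them, where 5.69% of all genes were. In the sorting list of 42 genes, STXBP3, a partner of syntaxins in membrane fusion, had 2858 and 2537 against 693 (1.91), ARF6 was at 1.14 with probe sets from −0.65 to 1.49, RAB11FIP1 at 1.32 with probe sets down to −0.37, and STX1A at −1.15.

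Integrins had more members above day 7. Of 29 expressed genes of integrins, laminins and basal adhesion, 5 were past 2-fold higher on both miRNA arrays and none lower, where 4.62% and 1.33% of all genes were. The median of the list was 0.05, though, and −0.08 on the 2-miRNA array. ITGB8, the β8 integrin that pairs with αv, had 1041 and 709 against 131 on day 7 and 34 on day 5 (2.45). It was measured by 1 of its 5 probe sets, and on day 5 it was under the array median. ITGAV, the αv subunit, had 1908 and 2054 against 860 (1.17). ITGA2, the α2 subunit of a collagen receptor, had 3188 and 2918 against 642 (2.19), but its second probe set was at −0.27. ITGA6, the α6 subunit of laminin receptors, was at 1.32 and −0.18 on its 2 probe sets. BCAM, a laminin receptor, was under the median on day 7, and its bound was 1.36-fold. ITGB1, the β1 subunit that both α2 and α6 can pair with and that anchors polarised cells to their support, had 18952 and 18704 against 17284 on day 7 and 14443 on day 5, a difference of 0.12.

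Crypt-type genes showed no common course. The list of stem cell genes and Wnt targets had a median of −0.20 over 25 of 32 genes and −0.03 after the running median was subtracted, close to all genes in both cases. RGMB, a coreceptor of bone morphogenetic proteins, was below both controls, with 872 and 734 against 1718 on day 7 and 3308 on day 5 (−1.07), and all 4 of its probe sets were low. SP5, a Wnt target, was at 251 with the 2-miRNA mix and 40 with the 4-miRNA mix against 329, so its difference of −1.34 rested on the latter, where it was under the array median. HNF4G, a nuclear receptor of enterocytes, was at 1.28 and −0.82 on its 2 probe sets. DNA replication genes had a median of −0.21 with 2 of 47 past 2-fold lower, CDC45 (−1.03) and GINS4 (128 and 223 against 373), near the 3.24% of all genes. Mitosis genes had a median of −0.01 with 3 of 42 higher, near the 5.69% of all genes. Among them, CKAP2, a spindle protein with 4252 and 5527 against 1773, had 1 expressed probe set (1.43), and MAD2L1, of the spindle checkpoint, ranged from −0.02 to 1.50 over its probe sets.

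Enteroendocrine genes, those of the hormone-making cells, had the highest median of the lists of cell lineages, 0.21 over 14 of 33 genes. That median falls in a gap between PCSK1N (0.05) and CPE (0.37). The hormone genes GCG, PYY, SST, GIP, CCK and INSL5 were under the signal filter, and NTS, which passed it, was at −0.72. CALB1, a calcium-binding protein, was above both controls on both of its probe sets (1.42 and 2.41), with 1454 and 1488 against 531 on day 7 and 209 on day 5. RFX6, a factor of endocrine precursors, had 214 and 191 against 73 on day 7, a bound of 1.93-fold, whereas NEUROG3, which starts the lineage, was under the median on both miRNA arrays and at least 2.05-fold lower.

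**Figure D3:**
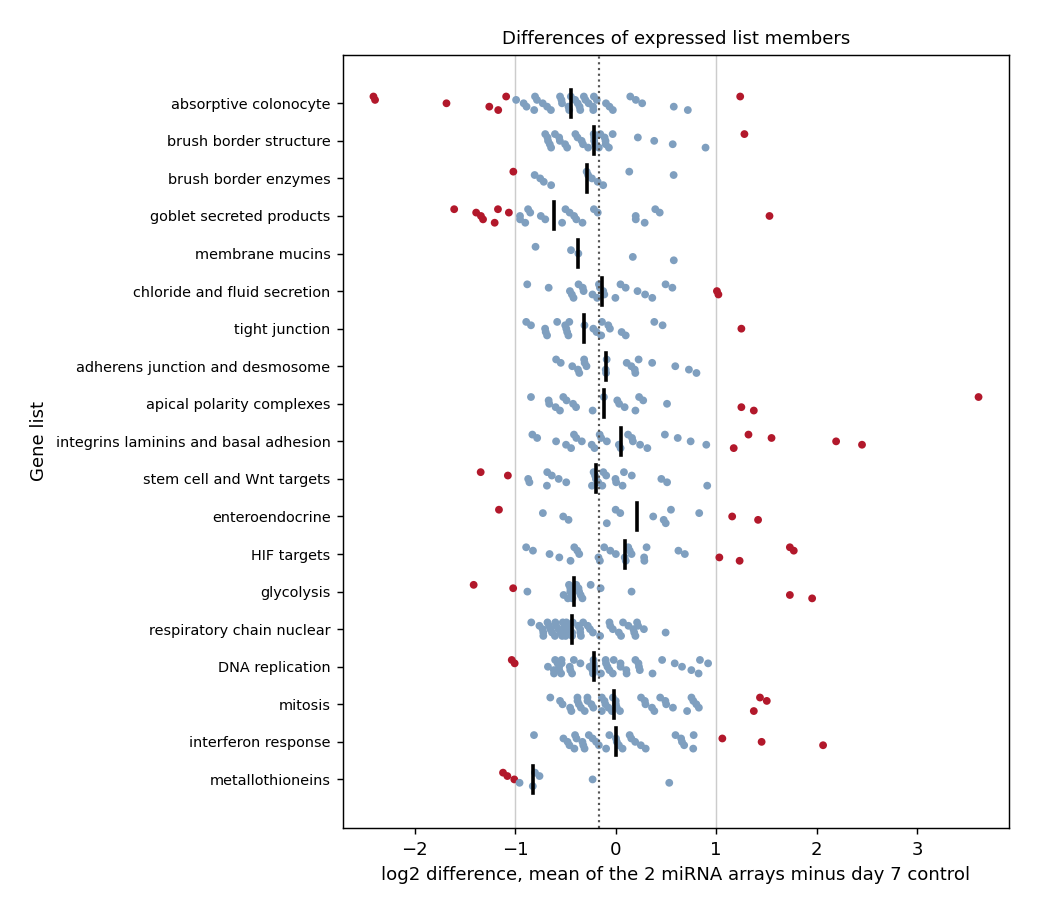
Each point is the log2 difference of 1 expressed gene, miRNA mean minus day 7 control, in 19 gene lists, with the list's median as a black bar, the all-gene median of −0.17 as a dotted line and genes past 2-fold in red. The goblet and absorptive lists and the metallothioneins lie to the left of the all-gene median, and the apical polarity and integrin lists hold single genes far to the right.

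Genes induced by HIF, the hypoxia-inducible factor, were near the day 7 level. The median over 27 of 31 genes was 0.09, and −0.06 and 0.16 on the 2-miRNA and 4-miRNA arrays. DDIT4, an inhibitor of mTOR signalling, had 12075 and 14095 with the mixes, 10538 on day 7 and 3756 on day 5. BNIP3, a mitochondrial receptor for autophagy, had 17487 and 19295 against 17134 and 6740, and EGLN3, one of the oxygen-sensing enzymes that tag HIF, 1414 and 2011 against 1381 and 273. These genes were at or above day 7 with both mixes, and NDRG1 was lower, with 15112 and 18993 against 22544. DDIT4, BNIP3, EGLN3 and NDRG1 were named outside the naming rule, and none of them was 2-fold from day 7. Between the controls, 13 of the 27 were at least 2-fold higher on day 7, where 3.35% of all genes were. Both miRNA arrays were above both controls for 12 of the 27 genes, against 22.8% of all genes.

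A few genes of sugar use exceeded day 7. PFKFB3, which makes the activator of phosphofructokinase, had 1239 and 1368 against 359 on day 7 and 355 on day 5 (1.77), and SLC2A3, a glucose transporter, 529 and 605 against 148 and 164, with its 3 probe sets between 1.25 and 1.73. PDK1, which restrains entry of pyruvate into mitochondria, was at 1.23 with another probe set at −0.14, and HK2, a hexokinase, at 1.95 with another at −0.70. HK1, the hexokinase of most tissues, was lower, with 296 and 240 against 763 on day 7 (−1.41). The glycolysis list as a whole had a median of −0.41, which was −0.10 with quantile normalization, and 3 of its 20 genes were near the top of the arrays' range, among them GAPDH (−1.02, or −0.08 with quantile normalization). The nuclear genes of the respiratory chain had a median of −0.43 over 49 genes and −0.15 after the running median was subtracted, with none past 2-fold.

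A pair of iron transporters was near day 7 on their brightest probe sets. SLC11A2, the apical importer DMT1, had 10114 and 12399 with the mixes against 11402 on day 7 and 2899 on day 5. Its 5 probe sets ranged from −0.59 to 0.91. SLC40A1, the basolateral exporter ferroportin, had 4264 and 4860 against 3957 and 1455. Neither transporter was 2-fold from day 7, and the pair was singled out after its values were seen. HEPH, a further gene of the iron transport list, was at −0.58 with its second probe set at 0.11. A list of metallothioneins, which bind zinc and copper, and 2 further genes of zinc handling had a median of −0.82 over 9 of 13 genes, and −0.74 after the running median was subtracted. MT1G had 927 and 740 against 1838 on day 7 and 1652 on day 5 (−1.12). MT1E had 311 and 150 against 496 and 418 (−1.08), and MT1H 776 and 659 against 1470 and 762 (−1.01). MT1G and MT1E thus lay below both controls, and MT1H near its day 5 level. The metallothionein genes are near copies of one another, so their probe sets may not separate them. SLC30A1, a zinc exporter, went the other way, at 0.53 with another probe set at 1.06, and MTF1, the factor that induces metallothioneins, was at −0.23.

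The genes that exceeded day 7 the most were of mixed function. FOLR1, the folate receptor α, had 4846 and 5584 with the mixes against 331 on day 7 and 383 on day 5, a difference of 3.85, the largest among genes at or above the array median on the 3 arrays compared, past 2-fold with both mixes and with expressed probe sets of 1 sign. RP2, an activator of the GTPase function of ARL3 in ciliary traffic, had 1519 and 1744 against 120 and 79 (3.44). Each was read by 1 of its 2 probe sets, so no other probe set checked it. The signal of RP2 was near the array median of 99 on day 7 and under the array median on day 5. NCKAP1, a subunit of the WAVE complex that drives branched actin, had 7576 and 8023 against 735 and 646 (3.35), but its second probe set was at 0.31. RB1, the retinoblastoma protein that restrains entry into S phase, was higher on both of its probe sets, 2.84 and 1.50, with signals of 2616 and 2932 against 360. ACSL4, which activates arachidonic acid, had 1415 and 1171 against 166 (2.74).

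The remaining genes of that rank were HMGN5, a nucleosome-binding protein (2.67), PPIL4, a prolyl isomerase (2.64), YIPF4, a Golgi membrane protein (2.49), ELK3, an ETS factor (2.30), NUDT12, a hydrolase of NADH (2.26), CUL4A, a ubiquitin ligase scaffold (2.25), ELL2, an elongation factor (2.23), and NIP7, of ribosome assembly (2.20). NUDT12 and NIP7 were past 2-fold on each of their 2 probe sets, with lowest differences of 1.03 and 1.26, whereas HMGN5, YIPF4, CUL4A and ELL2 had another probe set at 0.34, 0.03, 0.22 and 0.24. EVI5, ZFX and CD82 were under the median of the day 7 array, and the bounds were at least 4.62-fold, 4.62-fold and 4.17-fold higher, with a second probe set below 0 in each. Over all genes past 2-fold in either direction that had several expressed probe sets, 463 in number, the probe sets had 1 sign in 47.5% and were all past 2-fold in 9.07%.

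**Figure D4:**
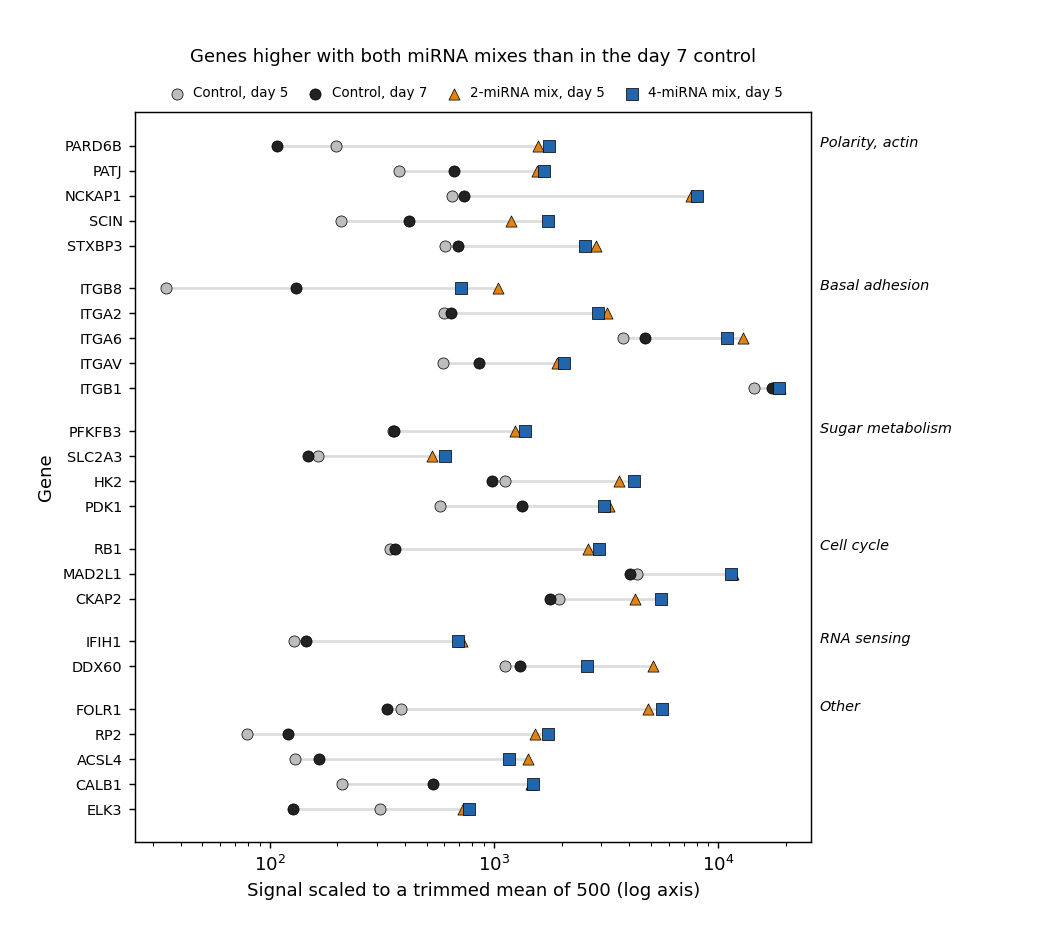
The scaled signal (log axis) of 24 genes is plotted on the 4 arrays, grouped by role, with the miRNA arrays as triangles and squares. Both miRNA arrays lie to the right of both controls for PARD6B, NCKAP1, RB1, FOLR1 and RP2, while those of ITGB1, shown for reference, lie close to the day 7 control.

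In the interferon list, with a median of 0.01 over 34 genes, IFIH1, the sensor MDA5 of double-stranded RNA, had 723 and 691 against 145 on day 7 and 128 on day 5 (2.06). DDX60, a helicase that aids such sensors, had 5119 with the 2-miRNA mix and 2586 with the 4-miRNA mix against 1311 (1.45), and SAMD9, an antiviral factor, was at 1.06 with both probe sets past 2-fold. Antigen presentation genes had a median of −0.49, which was −0.29 after the running median was subtracted, though ERAP2, a peptide-trimming protease, was at least 2.39-fold higher. ERAP1, its relative, was at 1.54 and −0.78 on different probe sets. In cholesterol synthesis MSMO1, a methylsterol oxidase, had 11057 and 14244 against 5609 (1.16), HMGCS1 was at 1.08 and −0.26 on its 2 probe sets, and TM7SF2, a sterol reductase, at −1.10.

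Among small RNA silencing genes AGO4, an Argonaute protein, was at 1.36 with another probe set at −0.23. Further members past 2-fold higher were CHORDC1, a cochaperone (1.79), UGT2A3, a glucuronosyltransferase (1.56), KRT10, a keratin (1.05, with other probe sets down to 0.02), ERO1A, an oxidase of the endoplasmic reticulum (1.03, down to −0.44), and SCIN, an actin-severing protein (1.70, but 0.38 with quantile normalization). UGT2A3 had 502 and 248 with the mixes, but its day 7 signal was close to the array median of 99. On day 5 UGT2A3 was under the array median. TFR2, a transferrin receptor, was under the median on day 7, with a bound of 1.41-fold. Members past 2-fold lower were KRT23 (−1.06), UGT2B15 (−1.44), CYFIP2 of the WAVE complex (−1.16), ADH6 (a bound of 1.75-fold), VIM (−1.26) and HSF1 (−2.06). UGT2B15, CYFIP2 and VIM were each under the array median on 1 miRNA array. HSF1, the heat shock factor, was 19 with the 2-miRNA mix, under the array median, and 128 with the 4-miRNA mix against 343, with a second probe set at −0.09.

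Lists of reported targets of the miRNAs had medians between −0.24 and 0.03. The list for miR-338-3p and miR-451 had a median of −0.01 over 26 genes and 2 genes past 2-fold, both higher, MACC1 (1.39) and AEBP2 (1.56). The list for miR-210 had a median of −0.24 over 21 genes, with ELK3 the one gene past 2-fold, and that for miR-33a a median of 0.03 over 21, with ATP8B1 higher (1.30, second probe set 0.03) and CRTC2 (−1.07) and SRC (−1.06) lower. miR-210 and miR-33a were in the 4-miRNA mix alone, and SRC was low on the 2-miRNA array (50) rather than the 4-miRNA array (231) against 273 on day 7. CRTC2 was under the array median on the 4-miRNA array.

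Beside the absorptive and goblet genes, the genes furthest below day 7, among those at or above the array median on the 3 arrays compared, past 2-fold with both mixes and with expressed probe sets of 1 sign, were CSNK1E, a casein kinase (−1.78), TRMT1, a methyltransferase of transfer RNA (−1.66), IL17C, an epithelial cytokine (−1.65), ELOA-AS1 (−1.63), HCFC1, a cofactor of transcription (−1.51), ZNF704 (−1.49), IQCH-AS1 (−1.47), GLP1R, the receptor of glucagon-like peptide 1 (−1.45), DDIT3, the stress factor CHOP (−1.42), and SLC30A2, a zinc transporter (−1.40). IL17C had 100 and 84 against 356 on day 7 and 122 on day 5, and SLC30A2 97 and 93 against 303 and 93. Both were thus near their day 5 signal, but with the mixes they lay close to the array medians of 87 and 82. SLC30A2 was under the array median on day 5. CEACAM7, by contrast, stayed near its day 5 level well above the array medians. TRMT1 had 226 and 521 against 1160 and 1281, below both controls, with both expressed probe sets low (−1.66 and −1.47). The second probe sets of CSNK1E and ZNF704 were smaller, at −0.43 and −0.64.

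Markers of intestinal epithelium were present on every array. All 15 measured epithelial markers were at or above the array median on every array, with a summed signal of 239722 and 258930 on the miRNA arrays, 326034 on day 7 and 241698 on day 5, and none was past 2-fold. EPCAM, near the top of the range, had 37349 and 35406 against 28272 (0.36). Fibroblast markers summed to 677 and 645 on the miRNA arrays against 945 on day 7, leukocyte markers to 1292 and 1581 against 1669, and endothelium markers to 859 and 631 against 897. The fibroblast marker THY1 was at −1.43 and 1.60 on its probe sets, and of the leukocyte list CD53 was at −1.09 and LYZ, named above among the secreted products, at 1.53. The ratio of 3′ to 5′ probe sets of ACTB, a sign of RNA integrity, was 2.28 and 1.97 on the miRNA arrays, 2.33 on day 7 and 2.11 on day 5, and that of GAPDH 0.962, 0.951, 0.978 and 1.02. ACTB itself was at −0.75, or −0.03 with quantile normalization. The part of brightness, RNA integrity or other cells in the results above was not tested.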

How the data were processed

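Biotin-labelled RNA made from 5 µg of total RNA was measured on Affymetrix U133 Plus 2.0 chips, per the labels' protocols. The deposited table holds an intensity per probe set (54675) and array, which the authors computed with MAS5, per the submitters' processing notes. The sources used here do not give the version of MAS5 or its scaling target. Arrays were scaled to a trimmed mean of 500 (2% left out at each end), and log2 of the signal plus 32 was taken, with Python 3.11.15, numpy 2.4.6 and pandas 2.3.3. Of the probe sets, 41097 had 1 gene symbol in the platform annotation, 1801 several and 11777 none listed; 41043 matched the gene table of GRCh38.p14 by ID. Probe sets with a mean log2 under the overall median were left out unless 1 array put them at or above its 75th percentile, and the brightest stood for its gene (5896 of 12264 genes had several). The comparison is the mean log2 of the 2 miRNA arrays minus the day 7 control, counted at an absolute difference of 1; with 1 array per group there was no test. The steps were tested on simulated data.

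The comparison, the 42 lists and the naming rule were chosen with earlier results of these data known. The rule took the 15 largest differences each way among genes at or above the array median on all 3 arrays, past 1 on both miRNA arrays and with expressed probe sets of 1 sign; up to 5 each way among genes under the median on one side and at the 75th percentile on the other; up to 10 members past 1 of each maturation list and up to 4 of other lists; and fixed reference genes. Some further list members, such as MYO1A, MEP1A and DDIT4, were named outside this rule. Genes under the array median on one side are given as bounds, the brighter signal over the dimmer array's median. HNF4A, one of the fixed reference genes, had no probe set of its own, so no value is given for it.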

Additional observations from a re-analysis of the deposited data

How the results depend on the processing

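Settings were varied one at a time, and all list medians described for the absorptive, goblet and brush border genes stayed below 0. The median of all genes was below 0 in each setting too, between −0.17 and −0.04. In the main setting 36 of the 42 lists had a median below 0 and 24 had a median below that of all genes, so neither alone sets a list apart. The count of genes higher rose from 698 to 1128 without the filter on signal. The count of lower genes, 397, was 216 after subtracting a running median, 226 with a constant of 64, 124 with a filter at the 70th percentile and 1432 without a filter. Lower genes thus outnumbered higher ones when no filter was used. The absorptive median (−0.45) became −0.32 with quantile normalization and −0.23 after subtracting the running median, and the stem cell and Wnt median (−0.20) became −0.029 with the latter. The brush border enzyme median (−0.28) was −0.47 with the 70th percentile filter and −0.58 on the 2-miRNA array alone; the goblet median (−0.62) was −0.48 without a filter and −0.85 on the 2-miRNA array alone. Taking the median over probe sets turned the direction of ECT2 (−0.033), ERAP1 (−0.16), RAB11FIP1 (−0.030), SLC4A7 (−0.10) and THY1 (0.086). Of 104 named genes past 2-fold, 74 stayed past it with the median over probe sets, 84 with a constant of 64, 85 after subtracting the running median, 87 and 93 on the 2-miRNA and 4-miRNA arrays alone, and 94 with quantile normalization. No paired analysis was possible because each group was 1 array. The number of arrays limits the precision.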
